A study of Arabidopsis thaliana with 8 samples.

Results

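The genes described here were silent in wild-type seedlings and expressed in the asap mutant. They were chosen by their measured levels: under 0.5 cRPKM in both Col0 libraries, 1.5 cRPKM or more in both asap libraries, and 10 or more read counts in both asap libraries. A cRPKM is a read count corrected for mappable gene length and for the mapped reads of the library, on the RPKM scale. The rule found 18 genes among 9536 loci with values, which cover chromosome 1 and the first part of chromosome 2. All 18 lay on chromosome 1, as did 8046 of the 9536 loci. All 18 were protein coding, as were 80.6% of the 9429 loci found in the annotation. The low level of the 18 genes in Col0 and their level in asap follow from the rule. These levels are therefore descriptions of the choice, and carry no test.

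RNA came from whole Arabidopsis thaliana seedlings grown on MS medium for 11 days at 22 °C in a cycle of 16 h of light and 8 h of dark. The asap line carries T-DNA insertions in SAP18, SR45 and ACINUS, sap18sr45 carries those in SAP18 and SR45, sr45 carries the one in SR45, and Col0 is the Columbia wild type, with 2 libraries for each genotype. All 3 mutant lines thus share a mutated SR45, and asap differs from sap18sr45 by the insertion in ACINUS. Each mutant was studied as 1 insertion allele per gene, and nothing in the labels tells if the replicate libraries were grown apart. A p-value therefore sets a difference only against the spread between the 2 libraries of a genotype, pooled over the genotypes. That spread may be technical.

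SAP18, SR45 and ACINUS make up the ASAP complex, which joins the exon junction complex on messenger RNA and takes part in splicing. SR45 is an SR-like splicing regulator, and SAP18 is also known from histone deacetylase complexes that repress transcription. In plants many genes for wall enzymes, transporters and hormone metabolism are switched on only in particular organs or cell types, so that a low level in whole seedlings can come from few cells. In whole-seedling RNA, fewer cells that express a gene and less RNA per cell cannot be told apart.

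Total counts over the loci used ranged from 1295244 to 4052420 per library, the lowest in sr45. SR45 itself, the targeted gene on these chromosomes, had 6.23 and 3.85 cRPKM in asap, 13.59 and 14.38 in sap18sr45, 6.62 and 4.99 in sr45, and 24.24 and 21.00 in Col0. It was thus below Col0 in every mutant library. SR45 was also lower in asap than in sap18sr45, so a comparison of asap with sap18sr45 is not of ACINUS alone.

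Of 4094 loci under the ceiling in Col0, 2726 had 0 counts in all 8 libraries, and 27 reached the floor in asap. The count minimum left 18 of these and set aside 9, namely 3AT2, LBD1, AT1G31720, AT1G36640, DVL5, AT1G73325, IDL5, MIR775A and AT2G12905. The genes just inside the asap floor were ABCB11, with 1.53 and 2.28 cRPKM in asap, TAF4 with 1.67 and 2.63, and PP2B13 with 1.70 and 5.34. Just outside it lay TPS22 with 1.49 and 2.16 cRPKM in asap, AT1G48405 with 1.5 and 1.48, and DTXL2 with 1.47 and 1.64. Nearest inside the Col0 ceiling were TAF4 with 0.49 and 0.41 cRPKM in Col0, TPPB with 0.38 and 0.49, and UMAMIT19 with 0.47 and 0.23. Nearest outside it were TRX8 with 0.45 and 0.50 cRPKM in Col0, AGL12 with 0.50 and 0.42, and AT1G14960 with 0.12 and 0.51. The last of these had 8.84 and 7.45 cRPKM in asap, above every one of the 18 genes in that genotype.

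The 250 bases before the annotated start of 4 of the 18 genes are shown, since the values below turn on them. PME7 had the highest level in asap, AT1G52820 had the highest level in sap18sr45, AT1G74770 was the only one called between sap18sr45 and sr45, and AT1G30760 had the widest gap between asap and all other libraries. The sequences are RefSeq's (TAIR10.1), 5′ to 3′ on the strand of the gene, with matches to the W-box core (TTGACC or TTGACT, on either strand) and to TATAAA (on either strand) in capitals. PME7 lies on the plus strand and the window is chr1:617811-618060, AT1G30760 on the plus strand at chr1:10918017-10918266, AT1G52820 on the plus strand at chr1:19668755-19669004, and AT1G74770 on the minus strand at chr1:28094957-28095206.
PME7: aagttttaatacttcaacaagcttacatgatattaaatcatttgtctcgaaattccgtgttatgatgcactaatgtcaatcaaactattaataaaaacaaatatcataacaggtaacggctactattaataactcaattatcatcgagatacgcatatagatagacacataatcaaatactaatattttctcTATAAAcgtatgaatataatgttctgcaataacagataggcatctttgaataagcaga
AT1G30760: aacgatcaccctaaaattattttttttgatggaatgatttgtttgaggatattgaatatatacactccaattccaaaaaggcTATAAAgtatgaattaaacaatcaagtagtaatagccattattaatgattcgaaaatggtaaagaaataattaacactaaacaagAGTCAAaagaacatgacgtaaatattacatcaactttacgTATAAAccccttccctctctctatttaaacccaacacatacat
AT1G52820: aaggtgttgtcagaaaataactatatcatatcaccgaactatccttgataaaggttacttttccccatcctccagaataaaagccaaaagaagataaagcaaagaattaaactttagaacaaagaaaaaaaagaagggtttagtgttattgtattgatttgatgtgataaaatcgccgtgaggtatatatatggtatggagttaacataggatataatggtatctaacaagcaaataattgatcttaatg
AT1G74770: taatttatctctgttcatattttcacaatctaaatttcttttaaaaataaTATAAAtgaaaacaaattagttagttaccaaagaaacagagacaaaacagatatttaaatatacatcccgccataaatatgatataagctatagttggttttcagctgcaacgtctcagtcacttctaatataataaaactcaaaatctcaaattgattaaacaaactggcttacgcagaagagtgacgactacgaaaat

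In these windows PME7 has 1 TATAAA, 58 to 53 bases before the start. AT1G30760 has a TATAAA at 43 to 38 bases and another at 168 to 163 bases before the start, and the W-box core, read on the other strand, at 83 to 78. The window of AT1G74770 holds 1 TATAAA, 200 to 195 bases before the start, and that of AT1G52820 holds neither motif. Over all 18 genes, 6 (33.3%) had a W-box core within 250 bases, against 28.2% of 7597 protein-coding loci and 28.2% of the 2353 other coding loci silent in Col0. TATAAA was present in 10 of 18 (55.6%), against 47.5% of all coding loci and 50.7% of the other silent ones. None of the 18 windows held the G-box (CACGTG), which 6.54% of the windows of all coding loci held, or the CRT core (ACCGAC or its variant GCCGAC), which 7.04% held. The GCC-box (GCCGCC) occurred in 2.09% of all windows, the motif CGCGTT in 2.51% and the evening element (AAAATATCT) in 2.45%, and none of the 18 windows had any of them. All motifs were searched on both strands. The motifs do not overlap one another in these windows, and a match describes letters only.

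The 18 genes had low levels even in asap. Their mean cRPKM there ran from 1.90 to 5.6 with a median of 2.87, and their median rank lay at the 23.3 and 26.1 percentile of loci with counts in the 2 asap libraries. Read counts in asap ran from 11 to 122 (median 32.0), against 2 to 66 in sap18sr45 (median 11.0), 0 to 27 in sr45 (median 5.50) and 0 to 16 in Col0 (median 4.50). In asap the 18 genes summed to 52.0 and 58.6 cRPKM, against 18 and 14.0 in sap18sr45, 12.9 and 12.8 in sr45, and 4.95 and 4.75 in Col0. The sums of the asap libraries were therefore above those of Col0, as the rule requires. Those of sap18sr45 and sr45 lay between them, which the choice of genes low in Col0 and high in asap also favours. The ratio of the asap mean to the Col0 mean was between 4.54 (ABCB11) and 59.7 (AT1G48670), with a median of 11.1. Over all 5261 genes tested with edgeR, 25.6% were higher and 26.0% lower in asap than in Col0 at an adjusted p under 0.05. That contrast chose the 18 genes, so their own positions in it are not counted as calls.

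Most of the 18 genes stayed well below their asap level in the other mutants. In sap18sr45 the median level was 22.8% of the asap mean (range 11.0% to 76.0%), and in sr45 it was 19.5% (range 0% to 64.3%). Held to the same cRPKM thresholds, 1 gene (AT1G52820) reached 1.5 in both sap18sr45 libraries, 12 lay between and 5 stayed under 0.5 in both. In sr45 the split was also 1 (PP2B13), 12 and 5. PP2B13 had 6 and 12 counts in the sr45 libraries, so it fell short of the count minimum there. Genes under 0.5 cRPKM in all 4 libraries of the 2 genotypes were AT1G30760, AT1G48670 and AT1G61050. The asap libraries were both above the other 6 libraries in 15 genes, and the exceptions were HOP2, TAF4 and PP2B13. Set against sap18sr45 alone, both asap libraries were higher in 17 genes, where 39.5% of all genes tested showed such a gap, and against sr45 alone in 16, where 39.6% did. Both sap18sr45 libraries exceeded both Col0 libraries in 14 of the 18 (38.6% of all genes tested) and both sr45 libraries did so in 13 (32.7%). The genes were chosen to be low in Col0 and high in asap, which fixes part of these counts.

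**Figure D1:**
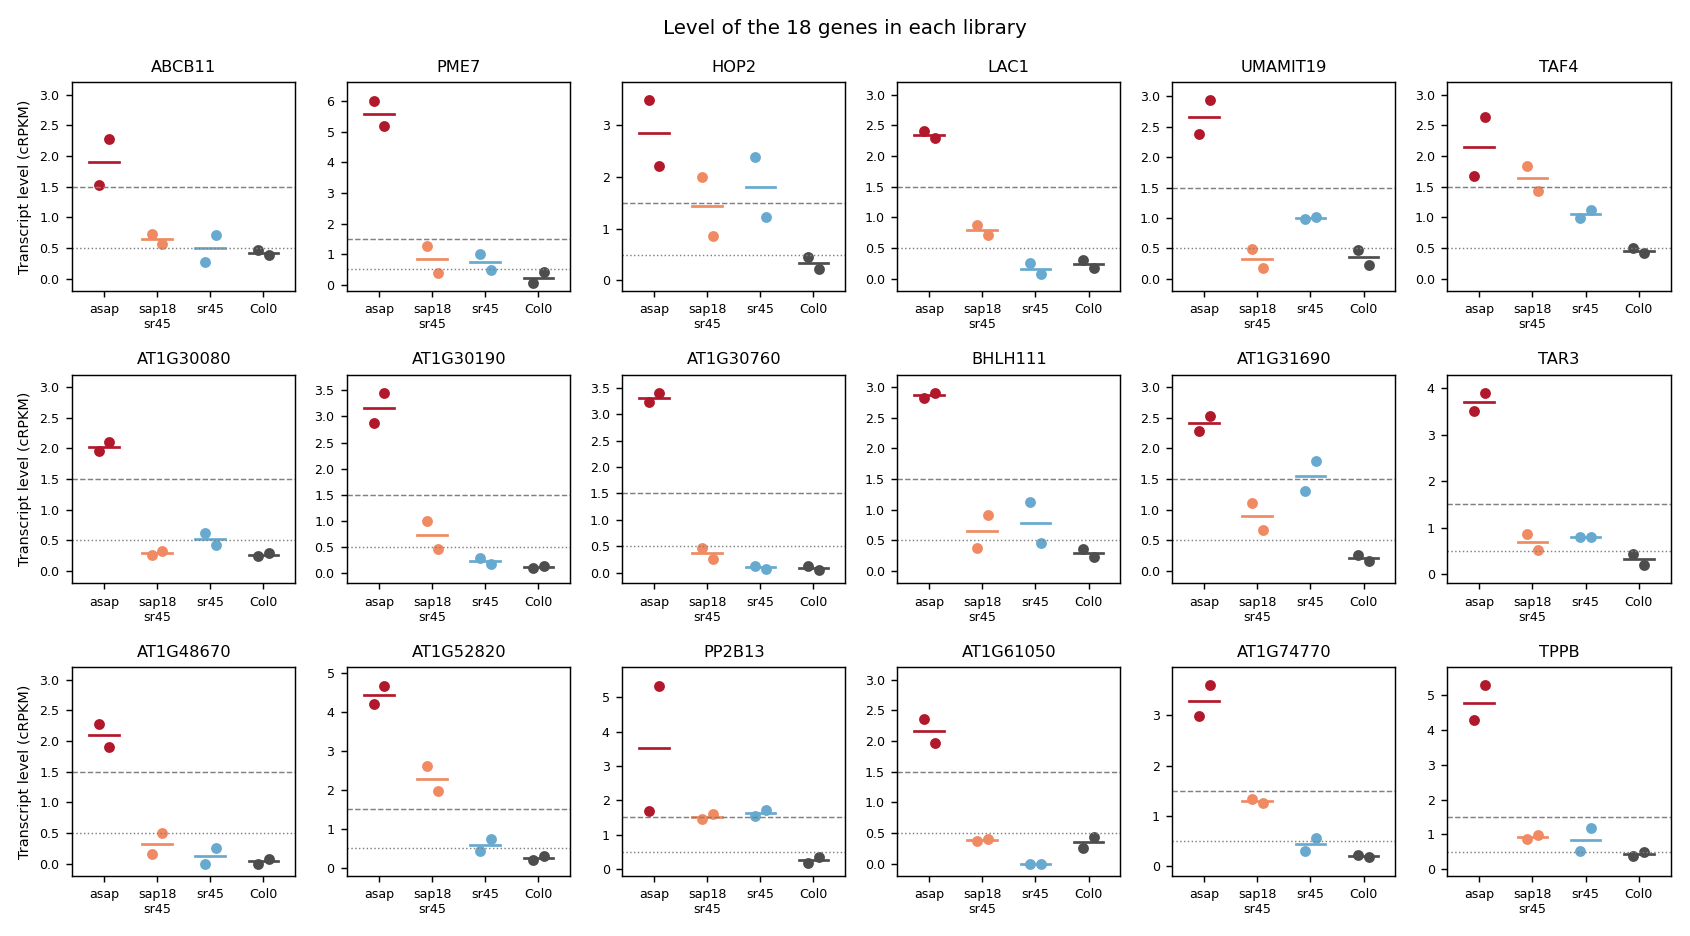
Transcript level (cRPKM, linear axis with its own range in each panel) of the 18 genes in each library. Each point is 1 library and each bar the mean of 2, with the thresholds of the rule as a dotted line (0.5) and a dashed line (1.5). Apart from HOP2, TAF4 and PP2B13, both asap points lie above all the others.

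**Figure D2:**
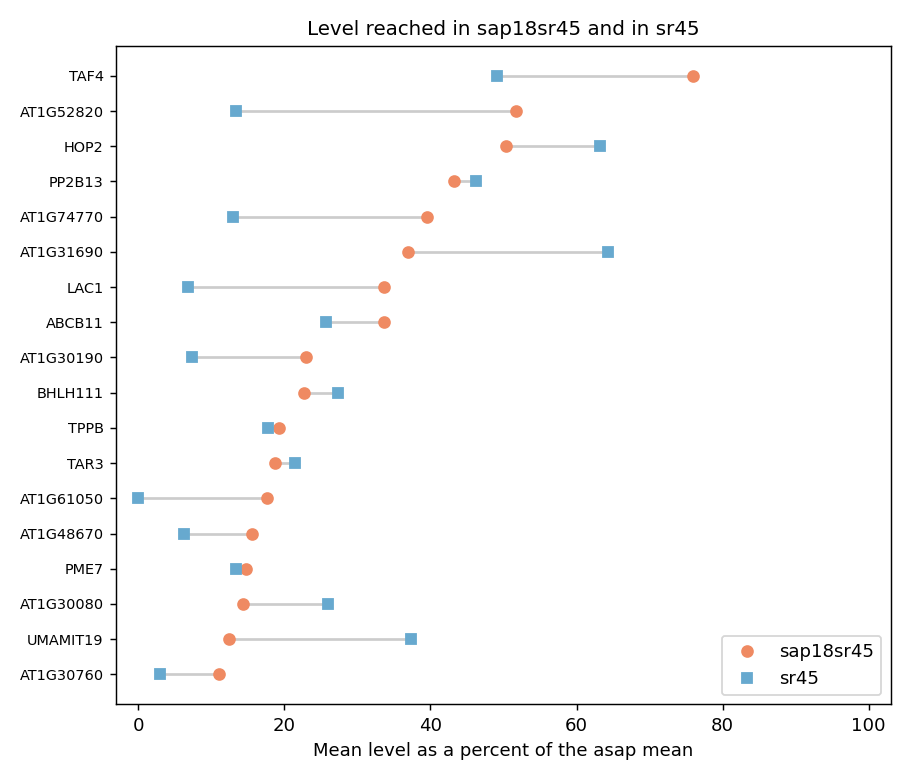
Mean level in sap18sr45 (circles) and in sr45 (squares) as a percent of the asap mean, 1 row per gene, ordered by the sap18sr45 value. TAF4 is highest in sap18sr45 at 76.0%, and AT1G31690 is highest in sr45 at 64.3%.

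The enzyme genes PME7, LAC1, AT1G30760, AT1G61050, AT1G30080 and AT1G31690 are given first. PME7 (AT1G02810) belongs to the pectin methylesterases, which remove methyl groups from wall pectin. It had 6.01 and 5.19 cRPKM in asap (79 and 85 counts), 1.26 and 0.39 in sap18sr45, 1.0 and 0.49 in sr45, and 0.04 and 0.41 in Col0 (1 and 7 counts). Its asap libraries were at least 4.12 times any other library, whereas those of sap18sr45 and sr45 overlapped each other.

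LAC1 (AT1G18140) encodes a laccase, a copper oxidase of the family that couples lignin monomers in the wall. LAC1 had 2.4 and 2.29 cRPKM in asap, 0.87 and 0.71 in sap18sr45, 0.25 and 0.07 in sr45, and 0.31 and 0.17 in Col0. Here sap18sr45 lay above sr45 without overlap while sr45 overlapped Col0. Behind these levels stood 21 and 11 counts in sap18sr45 and 2 and 1 counts in sr45.

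AT1G30760 is annotated as an FAD-binding berberine family protein, a family of flavin-dependent oxidases. It had 3.23 and 3.4 cRPKM in asap (42 and 55 counts), 0.47 and 0.26 in sap18sr45, 0.13 and 0.07 in sr45, and 0.12 and 0.06 in Col0. The lower asap library was 6.87 times the highest of the other 6, the widest such gap among the 18 genes. AT1G61050, of the alpha 1,4-glycosyltransferase family, had 2.35 and 1.97 cRPKM in asap (25 and 26 counts), 0.36 and 0.4 in sap18sr45, and 0.25 and 0.44 in Col0. It was at 0 counts in both sr45 libraries, and taking 3 counts for the 2 libraries together as the floor makes asap at least 11.5-fold, sap18sr45 at least 2.19-fold and Col0 at least 1.94-fold higher than sr45. AT1G30080, a glycosyl hydrolase, had 1.96 and 2.1 cRPKM in asap, 0.26 and 0.32 in sap18sr45, 0.62 and 0.43 in sr45, and 0.24 and 0.29 in Col0. For this gene the sap18sr45 libraries overlapped those of Col0 and lay below those of sr45.

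AT1G31690 is a copper amine oxidase, of enzymes that oxidise polyamines and release hydrogen peroxide. It had 2.29 and 2.53 cRPKM in asap, 1.11 and 0.67 in sap18sr45, 1.3 and 1.8 in sr45, and 0.26 and 0.17 in Col0. Its sr45 mean reached 64.3% of the asap mean and its sap18sr45 mean 36.9%, with no overlap between them. The next copper amine oxidase gene with values on the same strand, AT1G31710, lies 1751 bases away and was not silent in Col0. It had 27.20 and 25.49 cRPKM in asap, 7.41 and 8.59 in sap18sr45, 10.24 and 6.28 in sr45, and 7.60 and 7.17 in Col0, a log2 difference of 1.66 ± 0.16 (SE) between asap and Col0 (edgeR, adjusted p = 7.35e-10).

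Both transporters were close to the thresholds. ABCB11 (AT1G02520), a P-glycoprotein of the ABC transporter subfamily in which several members carry auxin, had 1.53 and 2.28 cRPKM in asap, 0.72 and 0.56 in sap18sr45, 0.27 and 0.71 in sr45, and 0.46 and 0.38 in Col0. Its ratio of asap to Col0 means, 4.54, was the smallest of the 18. The neighbouring ABCB12 was at or under 0.09 cRPKM in all 8 libraries. UMAMIT19 (AT1G21890), of a family of amino acid exporters, had 2.38 and 2.94 cRPKM in asap, 0.49 and 0.17 in sap18sr45, 0.98 and 1.01 in sr45, and 0.47 and 0.23 in Col0. It was thus above Col0 in both sr45 libraries while sap18sr45 overlapped Col0. UMAMIT19 shares 58 annotated bases with LYM1, which had 18.48 and 20.02 cRPKM in asap and 5.89 and 6.30 in Col0. The strand setting of the counting was not given in the sources used here. UMAMIT19 and LYM1 lie on opposite strands, so their reads can be told apart only if the counting used the strand, and the part of LYM1 in the UMAMIT19 values was not tested.

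Auxin and sugar metabolism contributed TAR3, AT1G48670 and TPPB. TAR3 (AT1G34040) is a relative of the tryptophan aminotransferase that makes the auxin precursor indole-3-pyruvate. It had 3.52 and 3.9 cRPKM in asap, 0.87 and 0.52 in sap18sr45, 0.8 and 0.79 in sr45, and 0.44 and 0.19 in Col0. Every library of both other mutants lay above Col0 and below asap. AT1G48670 is a GH3 gene, of the enzymes that join amino acids to hormones such as auxin and jasmonate. It had 2.28 and 1.9 cRPKM in asap (24 and 25 counts), 0.16 and 0.49 in sap18sr45 (3 and 6 counts), 0.0 and 0.26 in sr45 (0 and 3 counts), and 0.0 and 0.07 in Col0 (0 and 1 counts). The difference between sap18sr45 and sr45 was not detectable at this depth. TPPB (AT1G78090), a phosphatase that removes the sugar signal trehalose-6-phosphate, had 4.28 and 5.29 cRPKM in asap, 0.86 and 0.98 in sap18sr45, 0.52 and 1.17 in sr45, and 0.38 and 0.49 in Col0. It had the second highest mean in asap, and its sap18sr45 values fell inside the range of sr45.

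A further 3 genes, TAF4, HOP2 and BHLH111, have nuclear roles. TAF4 (AT1G27720, named TAF4B in RefSeq) encodes a TBP-associated factor, a subunit of the TFIID complex that starts transcription. TAF4 had 1.67 and 2.63 cRPKM in asap, 1.84 and 1.43 in sap18sr45, 0.99 and 1.12 in sr45, and 0.49 and 0.41 in Col0. One sap18sr45 library was above the lower asap library, and the sap18sr45 mean was 76.0% of the asap mean. HOP2 (AT1G13330), a meiotic gene that acts in pairing of homologous chromosomes, had 3.49 and 2.22 cRPKM in asap, 2.0 and 0.87 in sap18sr45, 2.39 and 1.22 in sr45, and 0.46 and 0.23 in Col0. All mutant libraries of HOP2 were above Col0 and those of the 3 mutant lines were spread widely. HOP2 shares 1151 annotated bases with AT1G13340 on the opposite strand, which had 3.26 and 4.52 cRPKM in asap, 8.71 and 6.68 in sap18sr45, 2.11 and 1.93 in sr45, and 2.78 and 3.53 in Col0, and the part of that gene in the HOP2 values was not tested. BHLH111 (AT1G31050), a basic helix-loop-helix transcription factor gene, had 2.83 and 2.9 cRPKM in asap, 0.38 and 0.92 in sap18sr45, 1.12 and 0.45 in sr45, and 0.36 and 0.23 in Col0. Its asap libraries differed little from each other, and the other mutants overlapped.

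The other 4 genes have roles that the annotation gives only by family. AT1G52820, a 2-oxoglutarate and Fe(II)-dependent oxygenase, had 4.19 and 4.67 cRPKM in asap, 2.61 and 1.97 in sap18sr45, 0.44 and 0.75 in sr45, and 0.21 and 0.31 in Col0. Its libraries fell in the order asap, sap18sr45, sr45, Col0 with no overlap between neighbours. AT1G74770, annotated as a zinc ion binding protein, had 2.98 and 3.6 cRPKM in asap (81 and 122 counts), 1.34 and 1.26 in sap18sr45 (66 and 40 counts), 0.3 and 0.55 in sr45 (5 and 16 counts), and 0.21 and 0.17 in Col0 (11 and 6 counts). The same order held, again with no overlap, and this gene had the highest counts of the 18 in asap. AT1G30190, a cotton fiber protein gene, had 2.87 and 3.45 cRPKM in asap, 0.99 and 0.46 in sap18sr45, 0.29 and 0.17 in sr45, and 0.09 and 0.14 in Col0, with 1 count in each sr45 and each Col0 library. PP2B13 (AT1G56240), of the phloem protein 2 family of lectins, had 1.7 and 5.34 cRPKM in asap (11 and 43 counts), 1.45 and 1.59 in sap18sr45, 1.53 and 1.73 in sr45, and 0.16 and 0.36 in Col0. One asap library of PP2B13 lay within the values of the other mutants and the other lay far above, and these 2 libraries differed by more than those of any other of the 18.

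The comparison of sap18sr45 with sr45 sets the lines with and without the SAP18 insertion side by side, and neither genotype was used to choose the genes. The lines also differed in SR45 transcript, with 13.59 and 14.38 cRPKM in sap18sr45 and 6.62 and 4.99 in sr45, so the comparison is not of SAP18 alone. Of the 18, AT1G74770 was higher in sap18sr45, by 2.78-fold (log2 difference 1.48 ± 0.38 SE, edgeR quasi-likelihood test on counts, adjusted p = 0.0193), and the other 17 were not called. Over all 5261 genes tested, 2.51% were called higher and 3.10% lower, so 1 of 18 is near the background. Without sr45 replicate 1, sap18sr45 replicate 1 or sap18sr45 replicate 2 the adjusted p of AT1G74770 was 0.155, 0.164 and 0.0863 in that order, and with limma or voom it was between 0.0913 and 0.135. AT1G74770 shares 471 annotated bases with AT1G74750, which had 1.49 and 2.75 cRPKM in sap18sr45 and 2.32 and 1.99 in sr45, values that overlap.

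At an unadjusted p under 0.05, 4 of the 18 were higher and 1 was lower in sap18sr45. No share of all genes tested was counted at an unadjusted threshold, here or below, so such counts have no background beside them. The estimates for LAC1 and AT1G52820 were 2.45 ± 0.85 and 1.80 ± 0.62 on the log2 scale (SE, edgeR, adjusted p = 0.101 for each). UMAMIT19 had -1.50 ± 0.72 (adjusted p = 0.297), the most negative of the 18. For AT1G61050, at 0 counts in sr45, only the bound of at least 2.19-fold is given (adjusted p = 0.138). The estimates of the other 13 genes lay between -0.86 (AT1G30080) and 1.92 (AT1G30760) with SE from 0.44 to 1.20 on that scale, and none was called at this depth. The median over the 18 was 0.27 on the log2 scale, beside 0.00 over all genes tested. In cRPKM, both sap18sr45 libraries were above both sr45 libraries in 7 genes (28.9% of all genes tested) and below them in 3 (18.2%), with an overlap in the other 8.

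**Figure D3:**
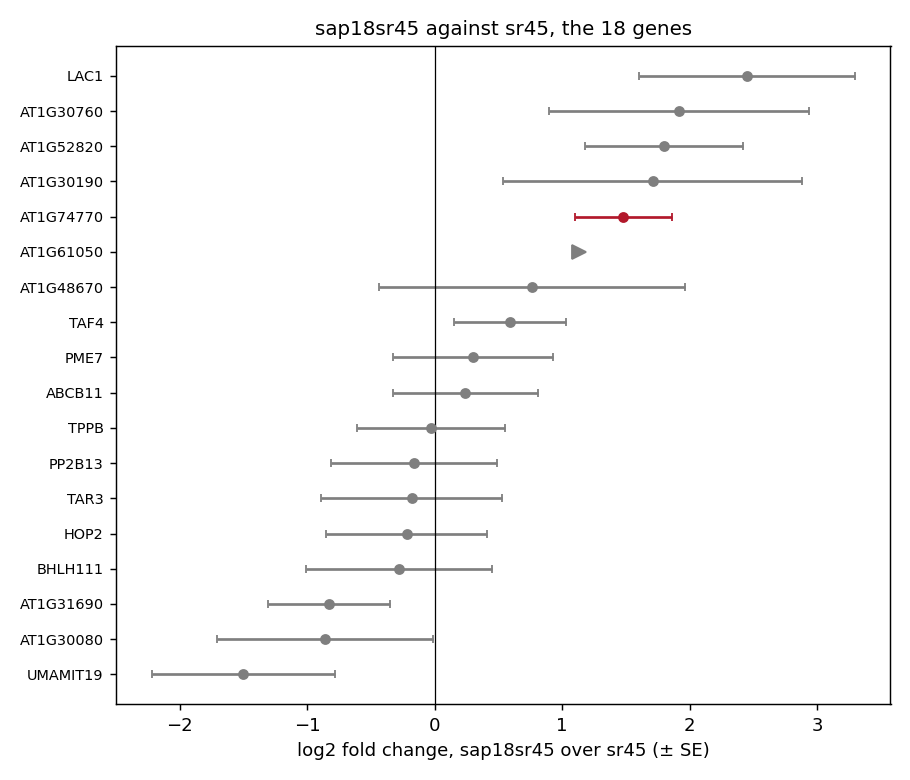
Log2 fold change of sap18sr45 over sr45 (points, edgeR) with its SE (bars) for the 18 genes. The red point marks AT1G74770, the only gene past the adjusted p threshold of 0.05, and the triangle marks the lower bound for AT1G61050, which had 0 counts in sr45.

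The same rule was applied to the other pairs of genotypes. From silent in Col0 it found 8 loci expressed in sap18sr45 and 1 expressed in sr45, of which only AT1G52820 was also among the 18. The 8 included the small heat shock gene HSP17.6C and the MADS-box genes AGL67 and AGL94. Loci expressed in asap numbered 12 from silent in sr45 and 8 from silent in sap18sr45, and each of these sets held 5 of the 18. AT1G30760, AT1G48670 and AT1G61050 were in both sets. In the other direction, 8 loci were silent in asap and expressed in Col0. These counts depend on the depth of each library through the count minimum, and sr45 had the shallowest library.

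**Figure D4:**
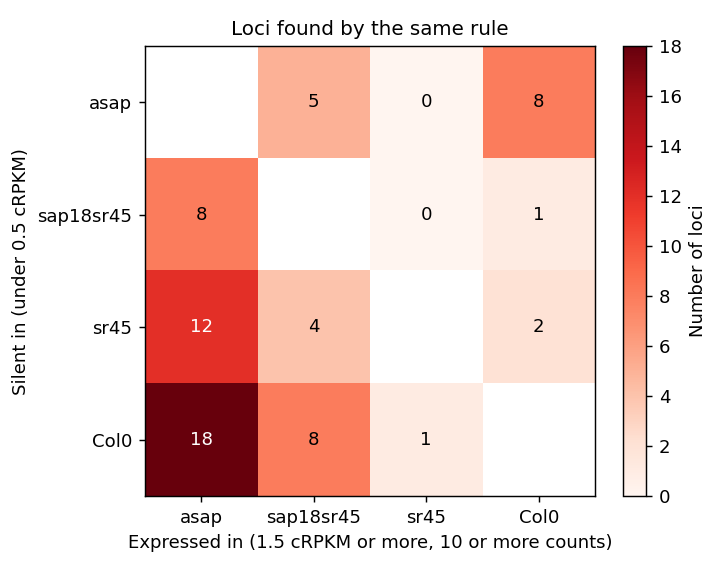
Number of loci that met the same thresholds for each ordered pair of genotypes, with the genotype in which the loci are expressed on the horizontal axis and the one in which they are silent on the vertical axis. The 18 genes are the cell for expressed in asap and silent in Col0.

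The 18 genes were longer and had more exons than other silent genes. Their median annotated gene length was 2580 bases, against 2105 for all coding loci with values and 1408 for the 2353 other coding loci silent in Col0. They had a median of 5 exons (range 1 to 15), against 4 and 2. A longer gene gives more counts at the same cRPKM, and the rule asked for 10 counts, so the length is not independent of it. On the plus strand lay 10 genes and on the minus strand 8.

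No 2 of the 18 were next to each other in gene order. A stretch of 797 kb from AT1G30080 to AT1G31690, noticed after the values were seen, held 5 of them (27.8%): AT1G30080, AT1G30190, AT1G30760, BHLH111 and AT1G31690. It holds 185, or 2.33%, of the 7956 chromosome 1 loci with values. Of the 108 other genes tested in that stretch, 26 (24.1%) were higher in asap than in Col0 and 29 were lower, beside 25.6% and 26.0% over all genes.

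Of the 36 loci that flank the 18 genes, 21 were tested. Of these, 7 (33.3%) were higher and 3 (14.3%) lower in asap than in Col0, beside 25.6% and 26.0% over all genes. Among the flanking loci the largest change was in ZAT10, a zinc finger transcription factor gene induced by stress. It ends 400 bases before the start of TAF4 on the same strand. ZAT10 had 75.71 and 67.36 cRPKM in asap, 3.87 and 1.78 in sap18sr45, 8.40 and 4.90 in sr45, and 2.67 and 2.6 in Col0 (asap against Col0, log2 difference 4.59 ± 0.24 SE, edgeR, adjusted p = 7.19e-15). Both genes were higher in asap than in Col0, whereas in sap18sr45 ZAT10 was below its sr45 level and TAF4 above its own. The part of ZAT10 in the TAF4 values was not tested. Annotated overlaps with a flanking gene were present in 6 of the 18, namely HOP2, UMAMIT19, TAF4, AT1G52820, PP2B13 and AT1G74770. The flanking gene was at 0 cRPKM in all 8 libraries for TAF4 (AT1G27710) and at most 0.12 for PP2B13 (AT1G56242). AT1G52820 shared 33 bases with AT1G52825, which had 9.50 to 16.90 cRPKM over the 8 libraries and was not called between asap and Col0.

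Relatives of the 18 genes were counted by the product names in the annotation, a grouping made after the genes were known, and without the 18 genes themselves. Beside 25.6% higher and 26.0% lower over all genes tested, 7 of the 10 other UMAMIT and EamA-like transporters tested were higher in asap than in Col0 and 0 were lower. Of the other pectin methylesterases tested, 3 of 7 were higher and 0 lower. Of 28 other bHLH genes, 10 were higher and 8 lower, and of 18 other 2-oxoglutarate oxygenases 4 were higher and 5 lower. The other families were small. Higher were 2 of 2 GH3 genes, 1 of 2 copper amine oxidases, 1 of 3 berberine family genes, 1 of 4 phloem protein 2-B genes and 0 of 2 P-glycoproteins. Lower were 1 of the 3 berberine family genes and 1 of the 4 phloem protein 2-B genes. None of the GH3, copper amine oxidase or P-glycoprotein genes was lower.

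None of the 18 belonged to 7 lists of genes written from background knowledge. The lists covered root and root hair, flower and pollen, seed, jasmonate and wounding, DREB and ERF factors, defence and oxidative stress, and heat. Together they held 99 of the 9536 loci with values, so the absence of 18 genes from them says little. Of the 52 list genes tested, 27 were higher and 7 lower in asap than in Col0, where 25.6% of all genes tested were higher and 26.0% lower. The counts of each list below stand against those same shares. The root and root hair list stood highest, with 9 of 11 tested genes higher, 1 lower (LRX2) and a median log2 difference of 3.38. In Col0, 14 of its 19 loci were under 0.5 cRPKM in both libraries, beside 4094 of all 9536 loci with values. The same held for 8 of 11 loci of the flower and pollen list and 7 of 10 of the seed list. The summed level of the root and root hair list was 69.5 and 65.8 cRPKM in asap, 21.3 and 18.6 in sap18sr45, 9.50 and 9.54 in sr45, and 6.74 and 6.77 in Col0. The highest level on the list in asap was that of the peroxidase gene PER3, with 43.09 and 30.12 cRPKM in asap and 2.61 and 2.08 in Col0. Without PER3 the list summed to 26.4 and 35.7 cRPKM in asap, 14.8 and 13.5 in sap18sr45, 6.30 and 5.35 in sr45, and 4.13 and 4.69 in Col0. The iron reductase gene FRO2 had 11.37 and 10.20 cRPKM in asap and 0.69 and 0.98 in Col0, and the root hair expansin gene EXPA7 had 1.29 and 2.65 in asap and 0.22 and 0.00 in Col0. Loci of this list at 0 numbered 1 and 4 in asap, 2 and 3 in sap18sr45, 7 and 4 in sr45, and 4 and 7 in Col0, with PER1 at 0 in all 8 libraries. Whether the share of root tissue differed between the genotypes, and its part in the levels of the 18 genes, was not tested.

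The other lists had smaller median log2 differences between asap and Col0, from -1.14 (seed) to 1.22 (heat). Among defence and oxidative stress genes, 9 of 16 were higher in asap and none lower (11 and 0 at an unadjusted p under 0.05). The list, which includes ZAT10, had summed levels of 242 and 214 cRPKM in asap, 77.3 and 61.6 in sap18sr45, 78.7 and 71.6 in sr45, and 51.9 and 53.8 in Col0. Heat genes had 2 of 4 higher, and jasmonate genes 5 higher and 3 lower of 9. The DREB and ERF list had 2 higher and 3 lower of 7. No tested gene of the flower and pollen list (3 tested) or of the seed list (2 tested) was called by edgeR, and none had an unadjusted p under 0.05.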

How the data were processed

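Raw counts per gene and cRPKM (RPKM corrected for mappability) were deposited by the authors in 1 table, made with vast-tools on its TAIR10-based Arabidopsis library. Neither was normalized between libraries further. The strand setting of the counting was not given in the sources used here. The part of the table used here holds 9998 loci, of which 462 carried no values. A single line named no locus (0.00281% of the counts at most) and was excluded.

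The 18 genes were selected on cRPKM and counts by the rule given above. The genes, lists and tests were chosen with earlier results of these data known. The rule for naming took the 10 highest in asap, those called between sap18sr45 and sr45, the 6 highest in each of these genotypes, those nearest each threshold (3 inside and 3 outside), and any with 0 counts in Col0 and 50 in asap (none); the rest of the 18 were added so that all have values. Other genes named (neighbours, and PER3, FRO2, EXPA7, LRX2 and PER1 of the root list) were chosen after their values were seen. Counts were fitted in R 4.3.3 with edgeR 4.0.16: filterByExpr (5261 genes kept, all 18 among them), TMM scaling (factors 0.956 to 1.09), and 1 robust quasi-likelihood model of genotype fitted to the 8 libraries (residual degrees of freedom 4). The 2-sided test of sap18sr45 against sr45 was adjusted by Benjamini-Hochberg over 5261 genes, with a threshold of 0.05. Contrasts with asap or Col0 were given for the 18 genes as descriptions. The biological coefficient of variation, shared by all genes, was 8.20%. Each SE is the size of the log2 difference over the square root of F. Bounds use 3 counts over a group and cover counting error only. The fitting script was tested on simulated data.

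Positions, products, neighbours and upstream bases came from RefSeq TAIR10.1, which keeps the nuclear chromosomes of TAIR10; 9429 of 9536 loci were found in it. Alternatives were other size factors, no filter, limma 3.58.1 on log2(cRPKM + 0.5) and log2(cRPKM + 0.1), voom with quantile normalization, DESeq2 1.42.0, a replicate block, the study's 2-fold rule, each library left out, and other thresholds of the selection.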

Additional observations from a re-analysis of the deposited data

How the results depend on the processing

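The number of genes selected depends on the thresholds. It was 4 with Col0 under 0.25 cRPKM, 85 with Col0 under 1, 40 with asap at 1 or more and 5 with asap at 3 or more, against 18. It was 15 with 20 counts or with cRPKM rescaled by TMM factors, 27 with no count minimum, and 38 to 69 when 1 Col0 or asap library was left out of the rule. Genes called between sap18sr45 and sr45 numbered 295, against 162 and 154 with limma on log2(cRPKM + 0.5) and log2(cRPKM + 0.1), 8 under the study's 2-fold rule, and 112 to 472 with 1 library left out. The calls among the 18 genes were 1, against 0 with limma on log2(cRPKM + 0.1) or voom. The 2-fold rule also asks for more than 5 cRPKM in both libraries of a genotype. The 18 genes reached at most 2.61 cRPKM in sap18sr45 and 2.39 in sr45, so none of them could pass it. With limma on log2(cRPKM + 0.5) the call was AT1G52820 (log2 difference 1.35, adjusted p = 0.0394) in place of AT1G74770 (adjusted p = 0.117), and without asap replicate 1 both were called. DESeq2 called 214 genes and gave none of the 18 an adjusted p, with 4 of them at an unadjusted p under 0.05.

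Of 264 values for single genes, 242 kept their direction and side of the threshold and 14 changed sign, none of them called. The rest were a call lost for AT1G74770 or gained for AT1G52820. Since 17 of the 18 genes were not called in the main fit, the side of the threshold was mostly fixed in advance. Most of the signs turned when a library of sr45 or sap18sr45 was left out, and that of TPPB also turned in other settings. Over the libraries left out in turn, ABCB11 ran from -0.17 to 1.20, PME7 from -0.86 (with -0.23 as the other negative value) to 0.81, HOP2 from -1.01 to 0.24 (also 0.18), BHLH111 from -0.98 to 0.38 (also 0.29), TAR3 from -0.64 to 0.09, AT1G48670 from -0.10 to 5.07, and TPPB from -0.39 to 0.76 (also 0.08). TPPB was also at 0.12 and 0.20 with limma (the larger pseudocount first) and at 0.06 with the replicate block. The cause was not tested. Deviations of same-numbered libraries of sap18sr45 and sr45 correlated at -0.04, so no shared deviation was seen. A shared deviation smaller than the noise of the counts could be missed this way, so pairing by number was not settled. With the replicate block 267 genes and 1 of the 18 (AT1G74770, adjusted p = 0.0250) were called. The limits are 2 libraries a genotype and 0 to 66 counts per library for these genes in sap18sr45 and sr45.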
